A study of Symphysodon aequifasciata with 2 samples.

Results

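Prolactin, growth hormone and insulin-like growth factor (IGF) signalling was described in the brain of 1 male and 1 female discus (Symphysodon aequifasciatus), an ornamental cichlid, both aged 1 year. The members were the rows of the deposited expression table whose protein annotation names the prolactin receptor, the growth hormone receptor, growth hormone-releasing hormone or its receptor, an IGF, an IGF-binding protein, the IGF-1 receptor, or the insulin receptor or its substrates, leaving out mRNA-binding proteins. They came to 19 of 40209 features, a feature being a transcript cluster assembled from the reads without a genome, and stood for 13 proteins. Each sex was represented by 1 library of poly(A) RNA, and both fish were killed in 100 mg/L of the anaesthetic MS-222 before the brain was frozen; the labels give no other treatment and no strain. The design sets the female against the male brain. With 1 fish per sex there was no replicate and no test between the sexes, so every difference below is between these 2 libraries, and sex cannot be told apart from the individual fish or its library. The sex of a library is taken from its gender label, while the library titles begin with O for the male and T for the female, initials that the labels do not explain, and were the gender labels crossed, each direction below would be the opposite.

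Growth hormone and prolactin are related pituitary hormones that bind single-pass receptors of the cytokine receptor family and act through the kinase JAK2 and STAT transcription factors. Growth hormone release is driven by growth hormone-releasing hormone from the hypothalamus, and growth hormone in turn raises IGF output, in liver and in other tissues. IGFs bind the IGF-1 receptor, a tyrosine kinase that signals through insulin receptor substrates, while secreted IGF-binding proteins hold IGFs outside the cell and set how much of them reaches the receptor. In the vertebrate brain IGFs support the growth and survival of neurons, and the prolactin receptor is known for roles in parental behaviour and feeding.

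Values are in TPM, reads divided by an effective feature length, shorter than the full length, and scaled to a fixed library total. Pairs of values give the male first and the female second. The worth of 1 read could be recovered from the deposited values. By it the 40209 features together held an estimated 2.66e+07 reads (male) and 2.45e+07 reads (female), and reads outside these features are not counted. The 95% intervals given with folds are exact Clopper-Pearson intervals from these reads, and they cover counting error only, not the difference between fish. The labelled tissue was checked by 7 brain markers, all measured, among them snap25 at 2201 and 2642 TPM and gfap at 218 and 226 TPM. Of the 7, 5 were higher in the female library, with sums over all 7 of 5002 and 6414 TPM. The neuronal markers were divided, with snap25 higher in the female library and elavl3 and syt1 lower there, at 52.7 and 25.9 TPM and at 80.58 and 64.55 TPM. By its most abundant feature elavl3 was the only brain marker past 2-fold. Of 9 pituitary markers only pomc was matched, and growth hormone and prolactin were not. The most abundant pomc feature measured 4.40 and 22.7 TPM (6 and 28 reads) and is in the table through the female library alone. With its 2 features summed pomc measured 10.45 and 38.1 TPM. All 3 blood markers were higher in the female library, with a summed level of 833 and 1701 TPM, and 4 of 8 endothelial and meningeal markers were higher there, with sums of 116 and 120 TPM. The part of blood, pituitary or vascular cells in the results below was not tested, and in a whole brain fewer cells of a type and less RNA per cell cannot be told apart.

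The largest differences among the members lay with the IGF-1 receptor and insulin receptor substrate 1, whose 6 features were all lower in the female brain. For 3 of these 6 the direction was fixed by the listing limit described below. On far more reads, 1801 and 954, the irs2 feature of 4179 bases was also lower there, at a male-to-female fold of 1.75 (1.61 to 1.89). The other irs2 feature had a fold of 1.09. The IGF-binding proteins split, with igfbp1 and igfbp4 lower and igfbp2a, igfbp7 and a feature matched to igfbp5 or igfbp6 higher in the female library. The ligand igf2 was close to equal. Of the 19 members 16 had the higher value in the male library, or 84.2%, where 56.2% of all features did, and 3 had it in the female library, where 43.7% did. With 0.5 added to each TPM, 4 members, or 21.1%, were past 2-fold towards the male, against 10.1% of all features. Through the listing limit, 4 of the 16 members and 3 of these 4 could only be lower in the female library. None was past 2-fold towards the female, against 5.02% of all features. Past 1.5-fold towards the male were 7 members, against 20.5% of all features. The log2 ratio, female over male, had a median of −0.48 among the members and of −0.07 among all features. It was −0.75 among the 10 short members described next, against −0.14 among features of their length, and −0.12 among the 9 long ones, against −0.04.

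**Figure D1:**
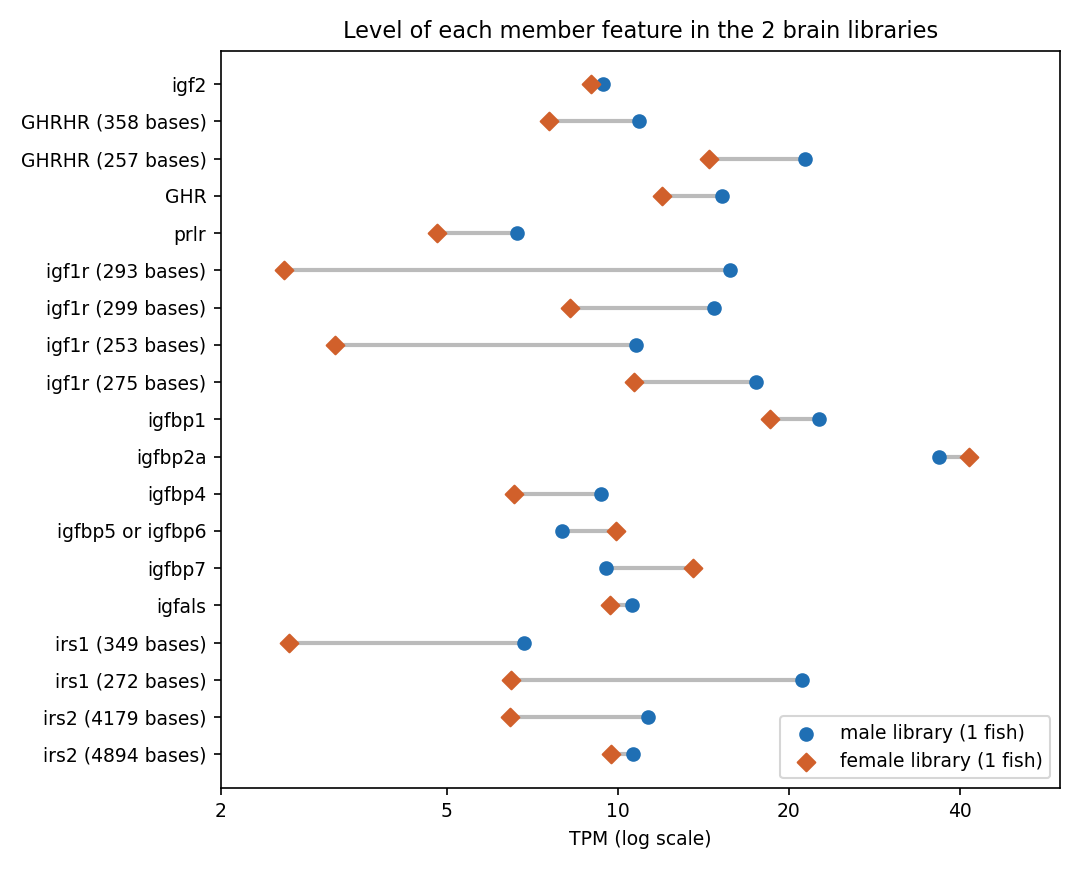
TPM of the 19 member features (log scale) in the male library (circles) and the female library (diamonds), 1 fish each, with a line joining the values of a feature. The male value is the higher in 16 of 19, with the widest gaps in features of igf1r and irs1, and the female value is the higher in igfbp2a, igfbp7 and the feature matched to igfbp5 or igfbp6. For 4 of the 16 the listing limit of 6.01 TPM fixed the direction.

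Feature length bears on how these counts read. The 4 members past 2-fold belong to the 10 short members of 253 to 358 bases, which rested on 4 to 45 reads each. In that length range 15.7% of all 10797 features were past 2-fold towards the male and 8.11% towards the female. The 10 short members were all higher in the male library, where 57.0% of features of that length were. They include 4 features of igf1r and 2 each of irs1 and GHRHR, which are not independent observations. The counting interval of the female-to-male fold of the 10 short members lay below 1 in 4 and above 1 in none, against 19.0% and 11.3% of features of that length. The other 9 members, of 824 to 4894 bases and 219 to 2004 reads, all lay within 2-fold, and in that length range 1.13% of features were past 2-fold towards the male and 0.44% towards the female. Of the 9, 6 were higher in the male and 3 in the female brain, against 55.9% and 44.0% of features of that length. Among these 9 the counting interval lay below 1 in 5 and above 1 in 3, against 35.9% and 24.6% of features of that length. The table also holds only features that reached 6.01 TPM in at least 1 library. In the female library 4 members were under this value (igf1r of 293 and of 253 bases, irs1 of 349 bases, and prlr), so they are listed through the male library alone and had to be lower in the female, as were 16.1% of all features. They include 3 of the 4 members past 2-fold, the exception being irs1 of 272 bases, so no direction is read from these 4 features. None was listed through the female library alone, against 9.47% of all features. The shares listed through the male and the female library alone were 18.9% and 11% in the length range of the short members. In that of the long members they were 8.62% and 4.79%.

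**Figure D2:**
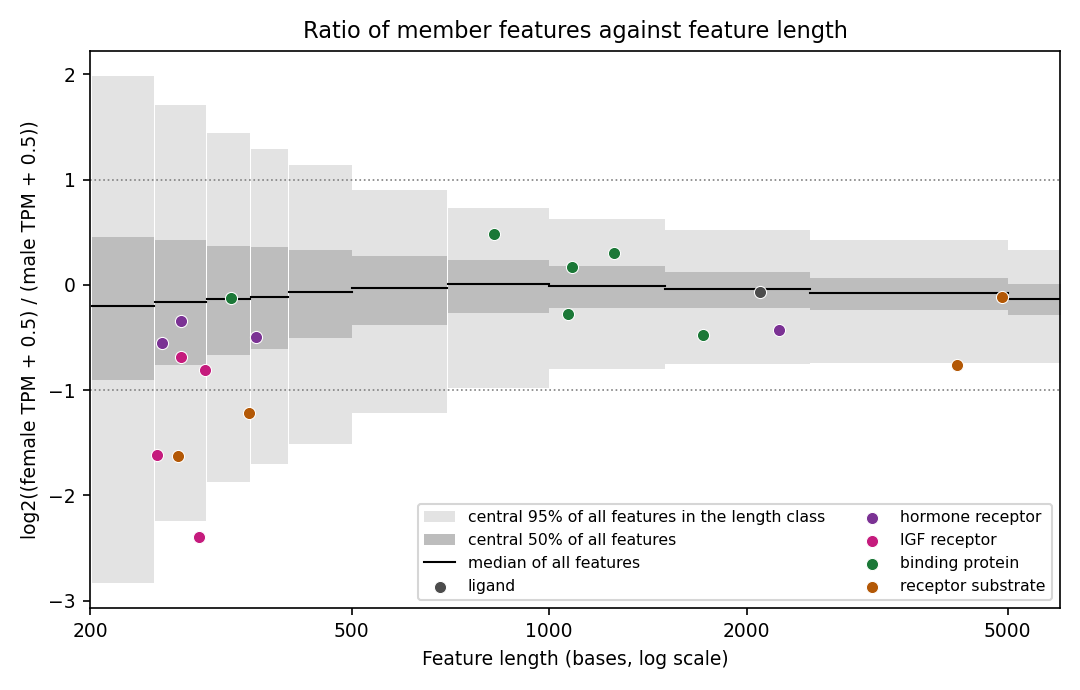
Log2 ratio of female over male, on the scale of TPM + 0.5, of the 19 member features (coloured by role) against feature length, over bands that hold the central 95% and 50% of all features in each length class, with dotted lines at 2-fold. The bands narrow with length; 1 igf1r feature of 293 bases and 1 irs2 feature of 4179 bases lie below the central 95% of their class.

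Among ligands, igf2, which encodes a growth-promoting IGF made in many tissues, was the only member. It measured 9.43 TPM (male) and 8.95 TPM (female) over a feature of 2097 bases (TRINITY_DN13603_c4_g3). These levels were close to equal, with a female-to-male fold of 0.95 and an interval, 0.85 to 1.06, that held 1. Set relative to the median of all features, its log2 ratio turned from −0.07 to 0.0024. No feature was matched to IGF-I or to the insulin receptor itself, and these are not analysed here. The releasing hormone GHRH, annotated as somatoliberin and so outside the rule, measured 4.53 and 8.14 TPM over 35 and 57 reads, and it is in the table through the female library alone, which fixed its direction.

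The receptor for growth hormone-releasing hormone, GHRHR, which on pituitary cells drives growth hormone release, was represented by 2 short features. The feature of 358 bases measured 10.9 TPM (male) and 7.57 TPM (female), and that of 257 bases 21.4 and 14.5 TPM. Both were lower in the female library by similar factors, 0.69 and 0.68, but on 45 and 28 reads and on 31 and 19 reads, and both intervals held 1. With their reads pooled the male-to-female fold was 1.46 (0.999 to 2.14), so that the interval just reached 1. The table assigns the first of them a hormone receptor domain (HRM) and gives the second no domain.

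The growth hormone receptor, GHR, which carries the growth hormone signal to JAK2, was measured on a feature of 275 bases at 15.3 TPM (male) and 11.9 TPM (female). The difference was small against its 27 and 19 reads, and the interval of the female-to-male fold ran from 0.41 to 1.46. A close relative, the somatolactin receptor, which binds the fish pituitary hormone somatolactin, lay outside the rule on 2 further features. These pointed in opposite directions, at 21.7 and 10.1 TPM for a feature of 238 bases and at 7.85 and 11.3 TPM for a feature of 313 bases that carries the symbol GHR. With all 3 features pooled the male-to-female fold was 1.17 (0.82 to 1.68), so that no direction could be read for this receptor group at this depth.

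The prolactin receptor gene, prlr, was measured on a long feature of 2244 bases (TRINITY_DN11949_c0_g10) that was matched to the discus prolactin receptor itself, the only member with a match in its own species. It measured 6.63 TPM over 536 reads in the male and 4.81 TPM over 359 reads in the female library. The male-to-female fold was 1.38 (1.20 to 1.58), of a feature listed through the male library alone, which fixed its direction, and 10.2% of features of 1501 to 2500 bases had a lower ratio. The receptors for growth hormone and prolactin share a domain assignment, the ligand-binding domain of cytokine receptors (EpoR_lig-bind), on both features.

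The IGF-1 receptor gene, igf1r, was spread over 4 features of 253 to 299 bases, which carry 1 protein name and so are not replicates of each other. Which of them come from the same gene copy was not tested. The feature of 293 bases (TRINITY_DN4278_c0_g1) measured 15.8 TPM (male) and 2.58 TPM (female), or 34 and 5 reads. That of 253 bases (TRINITY_DN13463_c3_g15) measured 10.8 and 3.17 TPM, or 15 and 4 reads. The features of 299 and 275 bases measured 14.8 and 8.23 TPM and 17.5 and 10.7 TPM. All 4 were lower in the female library, the first pair past 2-fold and the second pair within it, with male-to-female folds of 6.10, 3.397, 1.79 and 1.64. The intervals of the first pair excluded 1, at 2.37 to 19.97 and 1.08 to 14.04, and those of the second pair held it. The first pair is also the pair listed through the male library alone, so that its direction was fixed.

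The assigned domains place these features in different parts of the receptor. Fibronectin type III repeats, which lie in its extracellular part, were assigned to the features of 293 and 299 bases, and the tyrosine kinase domain inside the cell to those of 253 and 275 bases. Each part therefore had 1 feature past 2-fold and 1 within it. The features of 299 and 253 bases carry the same assembly cluster stem (TRINITY_DN13463_c3) though they hold different domains. Pooled over the 4 features, 114 reads in the male stood against 43 in the female library, a male-to-female fold of 2.38 (1.66 to 3.47). The features of 293 and 253 bases, whose direction the listing limit fixed, enter this pooled value and its interval. The features of 299 and 275 bases, which reached the listing limit in both libraries, gave 65 and 34 reads and a fold of 1.72 (1.12 to 2.68). The ratio of the 293-base feature was undercut by 1.93% of features of 251 to 300 bases and that of the 253-base feature by 6.75%.

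**Figure D3:**
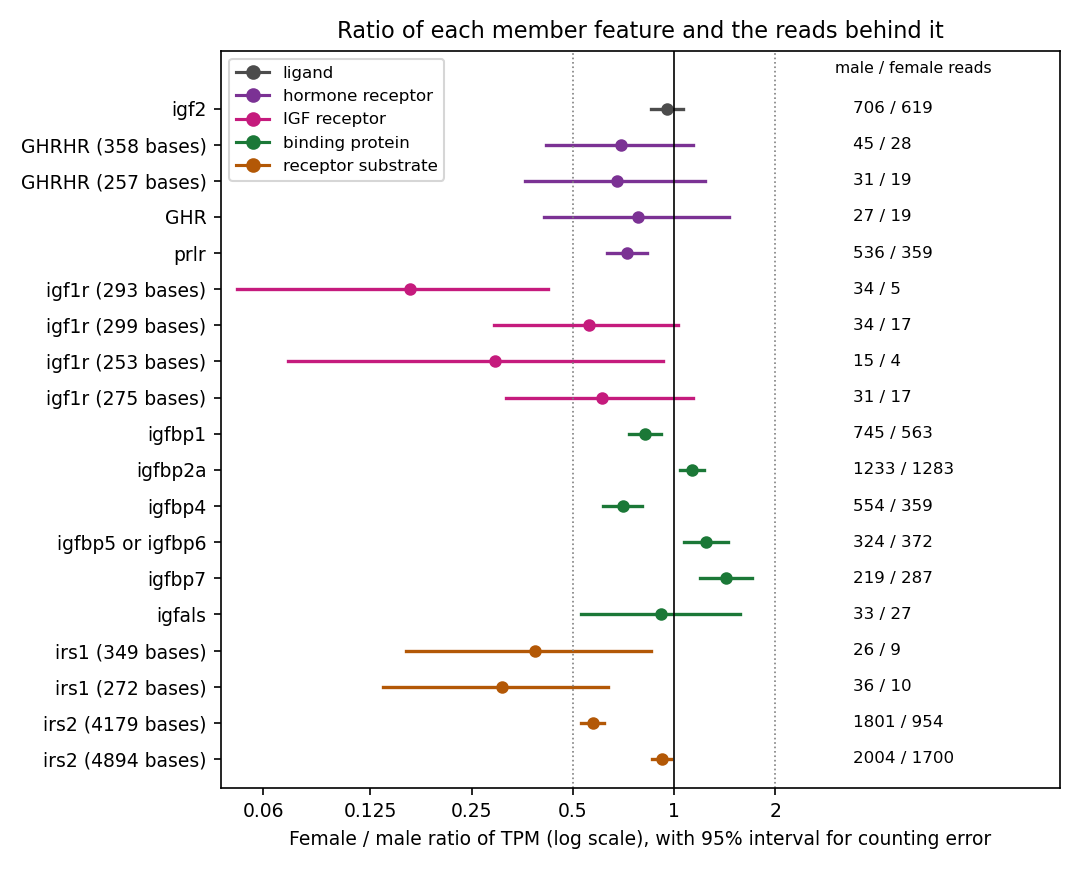
Female-to-male ratio of TPM (log scale) of the 19 member features with its 95% Clopper-Pearson interval for counting error, coloured by role, with the reads in the male and female library at the right and dotted lines at 2-fold. Short features of igf1r, irs1, GHRHR, GHR and igfals rest on 4 to 45 reads and have wide intervals, while the long features lie within 2-fold of 1 with narrow intervals.

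Insulin receptor substrates are the adapter proteins that the activated insulin and IGF-1 receptors phosphorylate to recruit phosphatidylinositol 3-kinase. Both irs1 features were lower in the female brain, at 21.1 and 6.49 TPM (36 and 10 reads) for the feature of 272 bases (TRINITY_DN11854_c3_g3) and at 6.82 and 2.64 TPM (26 and 9 reads) for that of 349 bases (TRINITY_DN12369_c2_g4). Their male-to-female folds were 3.24 (1.58 to 7.33) and 2.58 (1.17 to 6.27), and pooled reads gave 2.93 (1.73 to 5.19). The 349-base feature is listed through the male library alone, which fixed its direction and enters the pooled value, while the 272-base feature reached the limit in both libraries. They share a pleckstrin homology domain assignment (PH) with each other and with both irs2 features.

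The substrate gene irs2 was measured on 2 long features, with the most reads of any member in the male library. The feature of 4179 bases (TRINITY_DN11780_c1_g16) measured 11.3 TPM over 1801 reads in the male and 6.46 TPM over 954 reads in the female library. That of 4894 bases (TRINITY_DN12820_c2_g5) measured 10.6 TPM over 2004 reads and 9.74 TPM over 1700 reads. The first was thus clearly lower in the female library, at a male-to-female fold of 1.75 (1.61 to 1.89), and the second only slightly, at 1.09 (1.021 to 1.16). These intervals do not overlap, so the 2 features of the same protein name differed in ratio by more than counting error. Of the features of 2501 to 5000 bases, 2.20% had a lower ratio than the first and 43.1% a lower ratio than the second.

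The most abundant members were the binding protein genes igfbp2a and igfbp1. The first, igfbp2a (TRINITY_DN12162_c1_g2), which encodes a binding protein widespread in brain and cerebrospinal fluid of vertebrates, measured 36.8 TPM (male) and 41.6 TPM (female). It was slightly higher in the female library, at a fold of 1.13 (1.04 to 1.22). Second came igfbp1, known in fish and mammals as a binding protein that rises in fasting and stress, at 22.6 and 18.6 TPM. Here the male library was higher, 1.22-fold (1.09 to 1.36).

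The remaining binding proteins were also divided. In the male library igfbp4, mostly an inhibitor of IGF action, was 1.42-fold higher (1.24 to 1.63), at 9.35 and 6.57 TPM. In the female library igfbp7, which binds IGFs weakly and is common in vessel walls, was 1.42-fold higher (1.19 to 1.71), at 9.53 TPM (male) and 13.6 TPM (female). Its ratio exceeded that of 91.7% of features of 701 to 1000 bases, the highest position among the members. A feature whose protein match is igfbp5 and whose symbol is IGFBP6, so that its identity is uncertain, measured 7.98 and 9.93 TPM, a female-to-male fold of 1.24 (1.07 to 1.45). Its KEGG name, like that of igfbp1, igfbp2a and igfbp4, is IGF-binding protein 3. For igfbp1, igfbp2a and igfbp4 the symbol and the protein match name the same protein, and those names are used here. Among vascular markers, claudin-5 measured 27.5 and 35.4 TPM and kdr 11.5 and 12.9 TPM, with female-to-male intervals of 1.17 to 1.42 and 1.05 to 1.19. Lower in the female library were cadherin-5, at 14.2 and 11.8 TPM, and pecam1, at 19.7 and 13.4 TPM. These rested on 20 and 15 reads and on 21 and 13 reads. Their intervals, 0.39 to 1.70 and 0.31 to 1.43, held 1, so no direction could be read for them.

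Because these differences opposed each other, the summed level of the 5 binding protein features was nearly level, at 86.3 TPM (male) and 90.2 TPM (female). The share of igfbp2a in this sum was 42.7% (male) and 46.1% (female). The acid labile subunit, igfals, which holds IGF and binding protein in a large complex in blood, measured 10.6 and 9.67 TPM on a feature of 328 bases. Its 33 and 27 reads left an interval of the female-to-male fold of 0.53 to 1.57.

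Genes of the pathway were taken from 4 lists of 106 genes, each gene represented by its most abundant feature. The features of IRS1, IRS2, GHRHR and IGFALS are members described above and enter the list counts and medians again. The listing limit of 6.01 TPM holds for the list genes too. For the counts past 2-fold in each list, the shares of all features were 10.1% towards the male and 5.02% towards the female. Of the 8 genes past 2-fold, 6 are in the table through 1 library alone, the exceptions being IRS1 and DRD2. The female value of DRD2, 6.03 TPM, lies just above the limit. In the list of JAK-STAT signalling and its inhibitors 19 of 26 genes were measured and 18 lay within 2-fold. The exception was SOCS6, a SOCS-family inhibitor, at 6.16 TPM (male) and 2.53 TPM (female) over 19 and 7 reads, listed through the male library alone. Among the most abundant were features matched to SOCS7 (76.4 and 55.6 TPM) and STAT3 (22.8 and 24.3 TPM). The list's median log2 ratio was −0.28, and 14 genes were higher in the male brain and 5 higher in the female one, where 56.2% and 43.7% of all features were. Over features of at least 500 bases the list's median was −0.08. All features had a median of −0.07, and those over 500 bases had medians of −0.13 to 0.01 by length class. The limit fixed the direction of 5 of the 19, 3 towards the male and 2 towards the female.

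The transcription factor gene STAT5B, which both hormones activate, measured 6.30 TPM (male) and 4.47 TPM (female), and the kinase gene JAK2 had 18 and 9 reads, a male-to-female fold of 1.81 (0.77 to 4.58). The inhibitor genes CISH, SOCS3 and SOCS2 are induced by STAT5 in mammals. Their male values were 5.49, 5.11 and 9.40 TPM and their female values 8.41, 6.96 and 11.4 TPM. Of these, STAT5B is listed through the male library alone and CISH and SOCS3 through the female library alone, which fixed their directions, while SOCS2 reached the limit in both, with a female-to-male fold interval of 1.06 to 1.40. Another inhibitor gene of the list, SOCS1, measured 13.6 and 12.8 TPM, with an interval, 0.86 to 1.03, that held 1. SOCS6 and SOCS7, given above, were lower in the female library. The phosphatase gene PTPN6, which dampens cytokine receptor signals mainly in blood cells, measured 26.4 and 14.8 TPM.

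Of 42 genes of intracellular insulin and IGF signalling 35 were measured, and 32 lay within 2-fold. The list's median log2 ratio was −0.15, with 23 genes higher in the male brain and 12 higher in the female one, of 35, against 56.2% and 43.7% of all features. Past 2-fold towards the male were IRS1, by the 272-base member above, and INPPL1, a lipid phosphatase that opposes phosphatidylinositol 3-kinase, at 12.1 and 4.49 TPM over 30 and 10 reads. Past 2-fold towards the female was SHC2, an adapter of receptor tyrosine kinases, at 2.88 and 10.7 TPM over 12 and 40 reads. INPPL1 is listed through the male and SHC2 through the female library alone. All 3 were features under 400 bases, and no gene on a feature of at least 1000 bases, of which there were 22, was past 2-fold. Few long features were, with 1.13% of those of 824 to 4894 bases past it towards the male and 0.44% towards the female. The most abundant genes were RHEB, a GTPase that activates mTOR (84.5 and 58.1 TPM), GAB1, a docking adapter (47.97 and 39.9 TPM), and PIK3R1, the regulatory subunit of phosphatidylinositol 3-kinase (37.1 and 41.96 TPM).

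**Figure D4:**
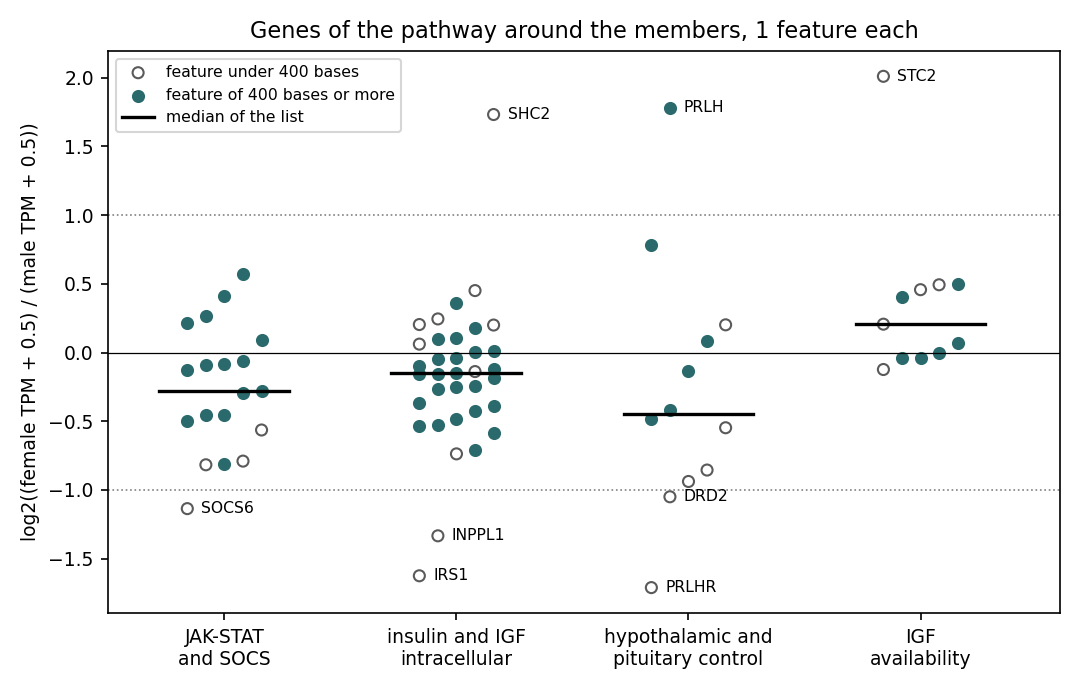
Log2 ratio of female over male, on the scale of TPM + 0.5, of the measured genes of 4 pathway lists, 1 feature per gene, with a bar at the list's median, dotted lines at 2-fold and names for genes past it. Open circles are features under 400 bases, which include 7 of the 8 genes past 2-fold, and the exception is PRLH.

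Hypothalamic and pituitary control of growth hormone and prolactin was covered by 23 genes, of which 12 were measured. Their median log2 ratio was −0.45, against −0.07 among all features. Of the 12, 8 favoured the male and 4 the female, against 56.2% and 43.7% of all features. The listing limit fixed the direction of 3 genes towards the male and of 2 towards the female. Over features of at least 500 bases, which leaves fewer genes, the list's median was −0.28. Prolactin-releasing peptide, PRLH, a hypothalamic peptide that in teleosts acts on prolactin cells, measured 4.46 TPM (male) and 16.6 TPM (female) on 33 and 111 reads. Its female-to-male fold was 3.71 (2.50 to 5.66). The receptor for this peptide, PRLHR, measured 18.4 and 5.27 TPM on 27 and 7 reads, a male-to-female fold of 3.49 (1.48 to 9.49). PRLH is listed through the female and PRLHR through the male library alone, so that both directions were fixed by the limit and nothing is read from their opposition. The dopamine receptor gene DRD2, through which dopamine restrains prolactin cells, measured 13.02 and 6.03 TPM on 41 and 17 reads. Summed with its other feature it measured 15.8 and 12.2 TPM, within 2-fold.

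The most abundant genes of that list lay within 2-fold. The somatostatin gene SST, whose peptide inhibits growth hormone release, measured 71.5 TPM (male) and 65.1 TPM (female), and the direction turned with its 4 features summed, to 113 and 126 TPM. The peptide PACAP (ADCYAP1), which stimulates growth hormone release in fish, measured 48.3 and 36.02 TPM. Its receptor ADCYAP1R1 measured 54.1 and 38.6 TPM.

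Genes that bear on IGF availability were the only list with a median above 0, at 0.21, and 7 of its 11 measured genes, of 15, were higher in the female library, where 43.7% of all features were. Over features of at least 500 bases its median was 0.03. Past 2-fold was only STC2, stanniocalcin-2, which blocks the protease that cuts IGF-binding protein 4, at 1.93 and 9.29 TPM on 3 and 13 reads (female-to-male fold 4.81, 1.32 to 26.3). STC2 and HTRA1 are listed through the female library alone. The most abundant were the membrane protease gene MMP14 (60.7 and 83.5 TPM), the lysosomal protease gene CTSD (53.2 and 55.7 TPM, or 64.95 and 64.4 TPM with its 2 features summed) and the endocytic receptor gene LRP1 (46.7 and 45.4 TPM). The extracellular protease genes MMP2 and HTRA1 measured 7.54 and 10.9 TPM and 5.26 and 7.14 TPM. The receptor IGF2R, which clears IGF-II in mammals, measured 14.1 and 16.3 TPM on 20 and 21 reads.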

How the data were processed

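The deposited table holds 1 TPM column per library, matched to libraries by title and grouped by the gender label. Its header names no unit; TPM was taken from column sums of 937828 and 943014 and from Salmon, which the submitters' processing notes name with cutadapt, FastQC and edgeR, without versions or roles. Feature identifiers have the Trinity form; the genome build is not given in the sources used here.

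Ratios are log2((female TPM + 0.5) / (male TPM + 0.5)), which understates low features. Folds are plain quotients of TPM. Requiring 1 TPM in either library removed nothing. TPM holds no depth, but equally long features had values at whole multiples of a step, taken as 1 read. The step was traced for each length from 201 bases to below 400 bases, and fitted as a constant over length minus an offset between 400 and 600 bases, then extended to longer features. Below 400 bases and 30 reads, 95.5% of 13648 values (male) and 95.2% of 15515 (female) lay within 0.1 of a whole number, against 20% by chance. For longer features reads are estimates. Duplicate reads would make intervals too narrow.

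List genes were matched by symbol, or by protein name where a feature had none, and 5 features matched to other proteins were left out. Members, lists and examples were chosen with earlier results of these data known. All members are named. In lists, genes past 2-fold and the 3 most abundant are named by rule. GHRH, STAT5B, JAK2, CISH, SOCS1, SOCS2, SOCS3, PTPN6, MMP2, HTRA1, IGF2R and the vascular markers were added after their values were seen. The procedures, in Python 3.11.15 (SciPy 1.17.1, NumPy 2.4.6, pandas 2.3.3; figures by Matplotlib 3.10.9), were tested on simulated data. No member sequences are printed, and 1 list gene that the rule names is not reported here.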

Additional observations from a re-analysis of the deposited data

How the results depend on the processing

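With another pseudocount or centring, the alternatives that can change a member's own ratio, 56 of 57 ratios stayed inside their counting interval. The exception was the 4179-base irs2 feature after centring, at −0.69. A pseudocount cannot turn a sign, and centring takes only the median of −0.07 off each ratio. The members past 2-fold therefore could not change sign under these alternatives, while igf2 did after centring, from −0.07 to 0.0024. The number of members past 2-fold towards the male, 4, was 0 over features of at least 500 or 1000 bases, 7 at 1.5-fold, and 2 with rows of the same annotation summed, which left igf1r and irs1. In the JAK-STAT list the count of genes past 2-fold towards the male, 1, became 0 at a minimum of 10 TPM and over features of at least 500 or 1000 bases. In the intracellular signalling list both directions became 0 over features of at least 500 or 1000 bases. In the hypothalamic list both became 0 there, and the male count, 2, was 3 with pseudocount 0.1 and 1 with pseudocount 1, after centring and with all rows of a gene summed. In the IGF availability list the female count was 0 at 10 TPM and over features of at least 500 or 1000 bases. Fewer features remain under these length and level limits. No list median changed sign. Adding the somatolactin receptor features, moved the log2 ratio of GHR from −0.34 to −0.42, and leaving out igf1r features under the listing limit in a library moved their summed ratio from −1.24 to −0.76; both alternatives were chosen after seeing the data. No paired analysis was possible because each sex has 1 library. Depth limits the short features most, and replicates would be needed for any statement on sex.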

Other observations

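Further features carry a KEGG name of the family but another protein match, so they lie outside the rule and were chosen after their values were seen. A feature of 208 bases with the KEGG name growth hormone, matched only to an uncharacterized protein, measured 42.6 TPM (male) and 16.5 TPM (female) over 40 and 14 reads, a male-to-female fold of 2.58 (1.37 to 5.13). Whether it is growth hormone RNA was not tested, and no other growth hormone feature was matched. A feature of 1258 bases with the KEGG name growth hormone receptor, whose protein match is a homologue of C5orf51 and not a receptor, measured 48.7 and 25.7 TPM over 1981 and 962 reads.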
